A study of Homo sapiens with 2 samples.

Results

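Peaks of H3K9me3 that lie at transcription start sites in KBM7 cells were described: 3224 of the 107490 peaks on 19 autosomes, or 2.999% (95% exact binomial interval 2.90 to 3.10), out of 126965 peaks in the series. A peak was taken when it overlapped, by 1 bp or more, the window from 1 kb before to 1 kb after the start site of a gene interval of 1 kb or longer. Chromosomes 8, 15 and 19 and the sex chromosomes stood outside this choice. The 24381 gene intervals that qualified are called rows here, and 3088 of them had such a peak, which is 12.7% (12.3 to 13.1). The start site was the low end of a row on the plus strand and the high end of a row on the minus strand.

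KBM7 is a near-haploid line derived from a chronic myeloid leukemia, and no treatment or genetic change is given in the labels. The study holds 1 library of chromatin immunoprecipitated with an H3K9me3 antibody (Abcam ab8898) and 1 library made with IgG. The values below are from H3K9me3, and IgG was not analysed here. With 1 library no value has a replicate, no test of a difference was run, and intervals cover counting error only. The rows sum to 62001332 reads, and the score of a row, given below in reads per kb, is the authors' read count over its whole length divided by that length. Rows that overlap share reads, since 32.6% of start sites lie inside another row, and how many reads the library holds in all was not stated there.

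H3K9me3 is written by methyltransferases such as SETDB1 and the SUV39H enzymes and is read by HP1 proteins, which compact chromatin. It is best known from pericentric repeats, from transposable elements and from the zinc finger gene clusters, where it lies over the coding exons near the gene's end. Start sites in use usually lack the mark, so that a peak over a start site is commonly found at genes that a cell type keeps silent. No expression values were part of these data, so whether a gene was silent was not measured.

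Promoter sequences of 9 genes with a peak at the start show how unlike these starts are in their bases. Each is the 250 bases before the start in RefSeq, build GRCh38.p14, written along the gene's strand with every CG dinucleotide in capitals. The peaks were given on hg19, so these coordinates belong to the promoter and not to a peak, and RefSeq may start the gene elsewhere than the row does. In these 9 genes the row's length lay within 5% of the RefSeq gene's. OLIG3, SIX6 and TBX5 stand for developmental transcription factors, and their promoters lie at chr6:137494395-137494644 (minus strand), chr14:60508896-60509145 (plus strand) and chr12:114408443-114408692 (minus strand).
OLIG3: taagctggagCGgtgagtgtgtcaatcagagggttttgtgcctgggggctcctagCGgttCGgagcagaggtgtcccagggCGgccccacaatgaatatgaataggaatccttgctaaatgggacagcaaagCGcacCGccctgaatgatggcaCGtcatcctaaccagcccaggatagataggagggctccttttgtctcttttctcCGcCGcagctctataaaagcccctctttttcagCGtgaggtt
SIX6: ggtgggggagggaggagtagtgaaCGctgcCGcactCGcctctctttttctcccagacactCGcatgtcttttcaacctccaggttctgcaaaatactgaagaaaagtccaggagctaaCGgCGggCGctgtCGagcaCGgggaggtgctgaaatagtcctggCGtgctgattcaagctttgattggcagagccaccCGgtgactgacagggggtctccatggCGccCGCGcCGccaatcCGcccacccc
TBX5: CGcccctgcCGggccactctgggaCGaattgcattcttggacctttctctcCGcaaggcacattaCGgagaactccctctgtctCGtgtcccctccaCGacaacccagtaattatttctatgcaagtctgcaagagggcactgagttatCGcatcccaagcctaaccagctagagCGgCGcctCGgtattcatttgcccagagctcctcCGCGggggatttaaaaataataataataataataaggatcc
SPO11 at chr20:57329553-57329802 (plus strand) makes the DNA breaks that start meiotic recombination, and BOLL at chr2:197786207-197786456 (minus strand) is a germ cell RNA-binding protein. They stand for germline genes.
SPO11: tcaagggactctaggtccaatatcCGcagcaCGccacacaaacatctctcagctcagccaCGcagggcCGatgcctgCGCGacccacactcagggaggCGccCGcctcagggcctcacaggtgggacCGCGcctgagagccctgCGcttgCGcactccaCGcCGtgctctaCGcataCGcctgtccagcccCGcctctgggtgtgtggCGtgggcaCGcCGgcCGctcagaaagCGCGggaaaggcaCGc
BOLL: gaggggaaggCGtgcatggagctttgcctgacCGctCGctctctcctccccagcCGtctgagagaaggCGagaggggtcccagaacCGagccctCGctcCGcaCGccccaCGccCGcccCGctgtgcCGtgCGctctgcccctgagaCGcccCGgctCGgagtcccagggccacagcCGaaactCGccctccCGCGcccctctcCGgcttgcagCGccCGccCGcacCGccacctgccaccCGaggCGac
PCDHB4 at chr5:141121568-141121817 (plus strand) is a clustered protocadherin, and KRT10 at chr17:40822615-40822864 (minus strand) is a keratin of the upper epidermis.
PCDHB4: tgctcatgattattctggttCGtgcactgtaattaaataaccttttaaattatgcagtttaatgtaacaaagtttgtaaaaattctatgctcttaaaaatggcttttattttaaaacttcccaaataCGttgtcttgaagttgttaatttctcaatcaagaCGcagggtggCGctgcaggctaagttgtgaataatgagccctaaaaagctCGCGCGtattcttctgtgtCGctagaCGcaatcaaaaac
KRT10: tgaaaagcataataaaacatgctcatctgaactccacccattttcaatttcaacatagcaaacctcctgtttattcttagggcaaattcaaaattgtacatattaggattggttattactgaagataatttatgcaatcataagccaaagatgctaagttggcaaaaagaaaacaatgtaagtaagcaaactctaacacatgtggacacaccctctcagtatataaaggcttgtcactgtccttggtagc
ZNF595 at chr4:53071-53320 (plus strand) and ZNF273 at chr7:64877353-64877602 (plus strand) are zinc finger genes.
ZNF595: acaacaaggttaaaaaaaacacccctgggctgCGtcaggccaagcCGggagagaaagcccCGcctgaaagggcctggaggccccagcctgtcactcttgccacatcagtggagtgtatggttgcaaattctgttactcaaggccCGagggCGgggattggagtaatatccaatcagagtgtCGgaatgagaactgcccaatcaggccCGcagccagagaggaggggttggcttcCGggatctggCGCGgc
ZNF273: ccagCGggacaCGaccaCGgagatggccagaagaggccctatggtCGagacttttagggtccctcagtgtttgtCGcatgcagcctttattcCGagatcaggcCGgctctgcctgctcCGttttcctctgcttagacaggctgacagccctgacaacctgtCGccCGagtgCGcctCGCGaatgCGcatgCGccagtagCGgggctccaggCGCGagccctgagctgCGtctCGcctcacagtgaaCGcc
BOLL held 28 CG dinucleotides in 250 bases, SPO11 24 and ZNF273 21, against 9 in PCDHB4 and 0 in KRT10. The GC share was 74.0% in BOLL, 68% in SPO11, 35.6% in PCDHB4 and 34.8% in KRT10. Set against the number expected from its C and G content, CG was not scarce in PCDHB4, at 1.14 observed over expected, against 0.856 in BOLL. H3K9me3 peaks thus lay at starts with dense CG and, in KRT10, at a start with none.

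Over all rows, peaks were about as frequent at start sites as in windows of the same size elsewhere along the gene and its flank. Windows moved by 5 to 50 kb upstream or downstream met a peak in 11.7% to 14.0% of rows, against 12.7% at the start and 12.2% (2975 rows) at the other end of the row. Within 250 bp of the start, 7.44% of the sequence lay in peaks, against 6.64% from 10 to 1 kb upstream and 6.22% from 1 to 10 kb downstream. The start itself lay inside a peak in 1832 rows, which is 59.3% of the rows with a peak and 7.51% of all rows. In 589 rows (19.1%) the peak lay only upstream of the start, in 562 (18.2%) only downstream, and in 105 (3.40%) on both sides but not over it. In rows with a peak, the 1 kb upstream was covered by 53.6% on average and the 1 kb downstream by 56.6%.

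**Figure D1:**
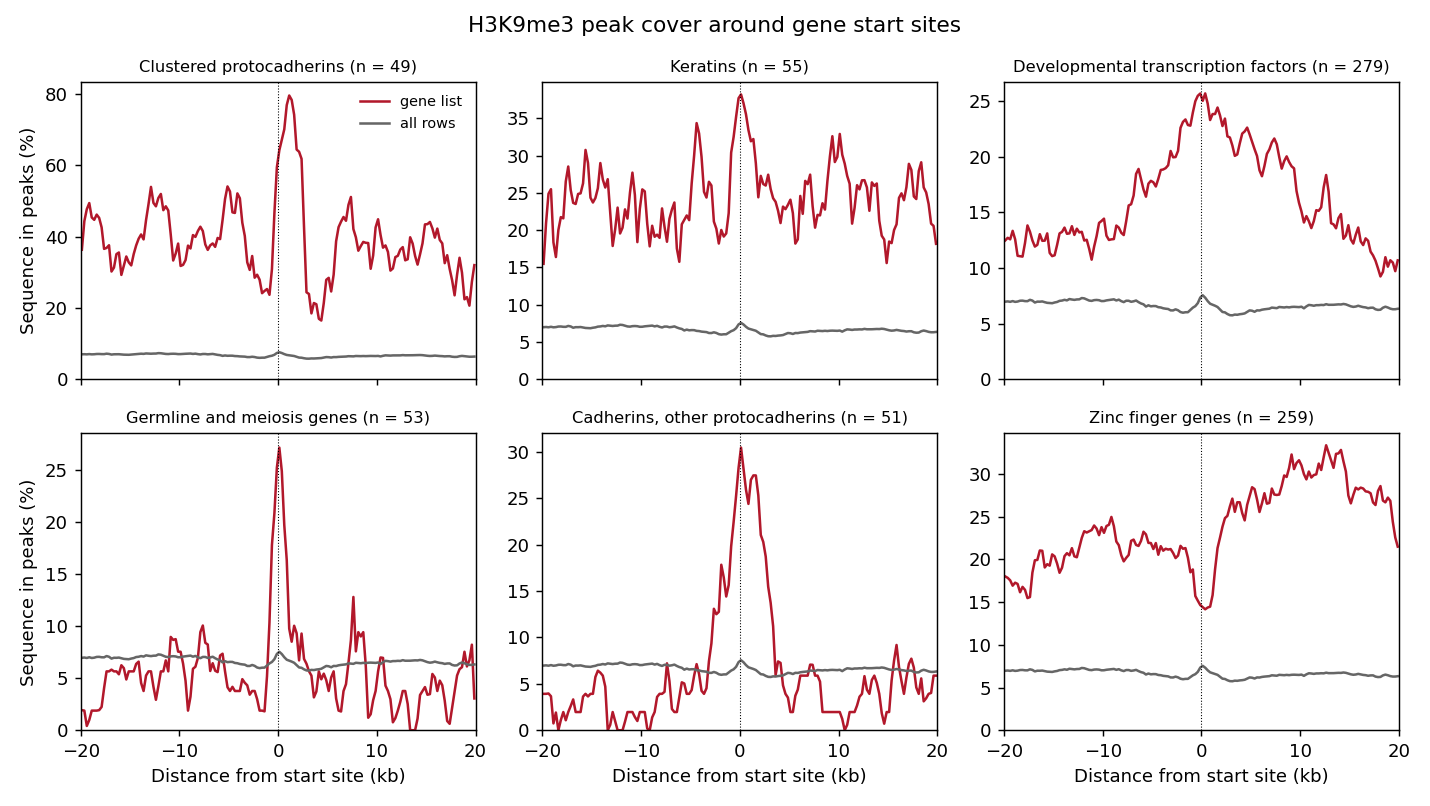
Percent of sequence in peaks (y axis) by distance from the start site in kb (x axis, negative values upstream), in 250 bp bins, for 6 gene lists (red) and all rows (grey), each panel with its own y axis. Germline genes and cadherins have a narrow maximum at the start, developmental transcription factors a broad one, and zinc finger genes a minimum.

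Gene families differed widely in how many of their starts carried a peak. Of 41 lists of genes described by name patterns or by known function, 26 had a larger share of rows with a peak at the start than the 12.7% of all rows. In 14 lists the share was at least 2 times that of all rows, and in 3 lists no row had one. Members of a list often sit side by side on a chromosome and 1 peak can reach several starts, so the rows of a list are not independent.

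**Figure D2:**
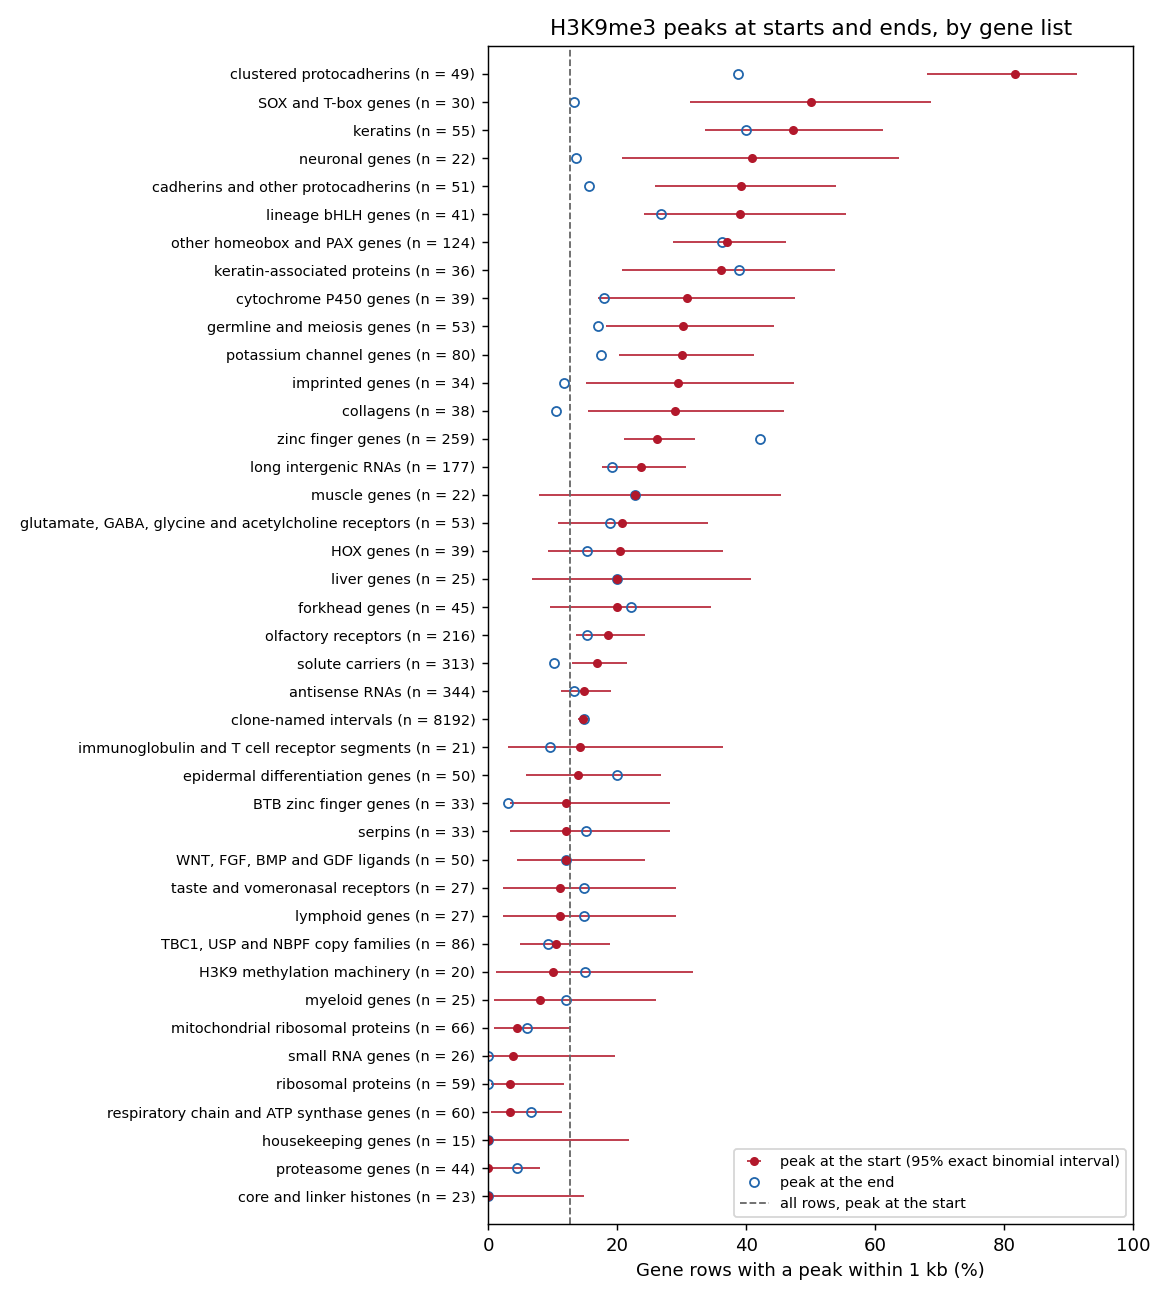
Share of rows with a peak within 1 kb of the start (red, with 95% exact binomial intervals) and within 1 kb of the end (blue open circles) in percent, for each of 41 gene lists; the dashed line is the share at the start over all rows (12.7%). Clustered protocadherins lead at 81.6%, and zinc finger genes are the list in which ends outnumber starts most, 109 against 68 rows.

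The clustered protocadherins, neuronal cell surface proteins of which each neuron picks a few from alternative first exons on chromosome 5, had the largest share: 40 of 49 rows (81.6%, 67.98 to 91.2), against 12.7% of all rows. The start lay inside a peak in 31 of them. Split by cluster, a split made after the values were seen, 13 of 15 alpha, 11 of 16 beta and 16 of 18 gamma rows had a peak at the start. The rows without one were PCDHA8, PCDHA12, PCDHB6, PCDHB8, PCDHB10, PCDHB15, PCDHB17, PCDHGC4 and PCDHGC5. PCDHGC4 and PCDHGC5 are C-type isoforms at the far end of the gamma cluster. Peaks were centred past the start: the highest cover, 79.7%, fell in the bin from 1000 bp downstream, against 61.9% within 250 bp of the start and 38.5% from 10 to 1 kb upstream.

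Among the beta genes, which have a single exon each, PCDHB1 (chr5:140430979-140433512) had 192 reads per kb (95% Poisson interval 175 to 210) under a peak of 3300 bp that ran from -828 to 2471 bp relative to its start. PCDHB12 (chr5:140588269-140591696) had 156 reads per kb and a peak of 4200 bp. PCDHB4 (chr5:140501581-140505201) had 132 reads per kb and a peak of 2400 bp. Between the beta and gamma clusters lie SLC25A2, a mitochondrial ornithine carrier at chr5:140682196-140683612, and TAF7, a subunit of the general transcription factor TFIID at chr5:140698057-140700330. SLC25A2 had 210 reads per kb with its start inside a peak of 6600 bp. TAF7 had 306 reads per kb, the fifth highest score among rows with a peak at the start, and its peak of 5700 bp began 480 bp downstream of the start.

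Other cadherins and protocadherins, adhesion proteins encoded one by one across the genome, had a peak at 20 of 51 starts (39.2%, 25.8 to 53.9), against 12.7% of all rows. These peaks were local. Cover was 29.4% within 250 bp of the start, against 6.08% from 10 to 1 kb upstream and 8.91% from 1 to 10 kb downstream. The rows with a peak had a mean of 11.2% of the gene in peaks, and their median score was 43.9 reads per kb, against 37.2 in the other rows of the list. The highest scores were those of PCDH8 (chr13:53418109-53422775, 187 reads per kb, peak of 9000 bp), FAT2 (chr5:150883654-150948505, 92.7 reads per kb, 10800 bp) and CDH3 (chr16:68678151-68732971, 87.9 reads per kb, 2100 bp). CDH1, the epithelial E-cadherin, named here after its values were seen, had its start inside a peak of 1650 bp and 77.9 reads per kb.

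Developmental transcription factors, the 5 lists of HOX, other homeobox and PAX, SOX and T-box, forkhead and lineage bHLH genes joined after their values were seen, had a peak at 94 of 279 starts (33.7%, 28.2 to 39.6), against 12.7% of all rows. These genes set cell fates in the embryo, and most are used in tissues other than blood. The start lay inside a peak in 71 rows. Many of these peaks were broad: the widest peak at a start had a median of 4200 bp over the 5 lists, 6150 bp in HOX, 5025 bp in other homeobox and PAX and 3825 bp in bHLH genes, but 2100 bp in forkhead and in SOX and T-box genes, and peaks covered a mean of 50.7% of the genes concerned. Cover was 25.4% within 250 bp of the start and still 17.5% from 10 to 1 kb upstream and 20.8% from 1 to 10 kb downstream. The median score was 110 reads per kb (97.0 to 137) in rows with a peak at the start, against 39.0 (35.1 to 43.6) in the other rows of these lists.

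Homeobox and PAX genes outside the HOX clusters had a peak at 46 of 124 starts (37.1%, 28.6 to 46.2), against 12.7% of all rows. SIX6, an eye and pituitary homeobox factor at chr14:60975669-60979568, had 274 reads per kb (257 to 291). Its peak of 14100 bp covered the whole gene and reached 3 starts, those of SIX6, C14orf39 and RP11-1042B17.3. EVX2, next to the HOXD cluster at chr2:176942200-176948641, had 244 reads per kb with its start inside a peak of 4200 bp. OTX2, a factor of the forebrain and eye, named here after its values were seen, had 207 reads per kb with its start inside a peak of 12900 bp.

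Of the lineage bHLH factors, 16 of 41 starts had a peak (39.0%, 24.2 to 55.5), against 12.7% of all rows. OLIG3, a spinal cord factor at chr6:137813336-137815531, had 404 reads per kb (378 to 432), the second highest score among rows with a peak at the start, and lay wholly inside a peak of 12900 bp. ASCL4 (chr12:108168162-108170421) had 252 reads per kb under a peak of 4500 bp. HAND2, a heart and limb factor at chr4:174446120-174451380, had 198 reads per kb, and its peak of 7200 bp ended 121 bp before the start. SOX and T-box genes had a peak at 15 of 30 starts (50%, 31.3 to 68.7) and at 4 of 30 ends (13.3%), against 12.7% and 12.2% of all rows. SOX1 (chr13:112721913-112726020) had 158 reads per kb, T, the mesoderm factor brachyury at chr6:166571144-166582188, had 145, and TBR1, a cortical neuron factor at chr2:162272605-162282381, had 110. TBX15 (chr1:119425666-119532179) had a peak of 19500 bp over its start, while 18.5% of the gene lay in peaks. TBX5, a heart and forelimb factor named here after its values were seen, had a peak of 13500 bp over its start and 33.7% of the gene in peaks.

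The HOX genes, which pattern the body axis, stood lower, with a peak at 8 of 39 starts (20.5%, 9.30 to 36.5), against 12.7% of all rows. By cluster, a split made after the values were seen, 4 of 9 HOXD, 2 of 9 HOXC, 2 of 11 HOXA and 0 of 10 HOXB rows had one. HOXD12 (chr2:176964458-176966408) had 245 reads per kb under a peak of 7350 bp. HOXD4 (chr2:177015950-177020802) had 151 reads per kb under a peak of 20400 bp. HOXC13 (chr12:54332535-54340328) had 179 reads per kb with its start inside a peak of 7500 bp. Forkhead genes had a peak at 9 of 45 starts (20%, 9.58 to 34.6), and the list also took FOXP1-AS1, FOXP1-IT1 and FOXD4L2, which had no protein-coding match. Among rows of 5 kb or more both lists lay below all rows, at 10.5% for HOX and 10% for forkhead genes, against 11.85%. FOXB2 (chr9:79634571-79635869) had 237 reads per kb, FOXE1 (chr9:100615536-100618986), a thyroid factor, 142, and FOXA2 (chr20:22561643-22566093), an endoderm factor, 126.

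Germline and meiosis genes had a peak at 16 of 53 starts (30.2%, 18.3 to 44.3), against 12.7% of all rows, and in 15 of the 16 the start lay inside the peak. Here too the peaks were local. Cover was 26.2% within 250 bp of the start, against 5.13% from 10 to 1 kb upstream and 5.95% from 1 to 10 kb downstream, where all rows had 6.64% and 6.22%. The 16 genes were MAEL, TDRD5, TDRD6, TDRD9, RNF17, BOLL, SPO11, PRDM9, TEX12, SPATA22, CRISP2, PGK2, DPPA5, TNP2, TUBA3C and TUBA3D. MAEL, TDRD5, TDRD9 and RNF17 act in the piRNA pathway of mice, which silences transposons in germ cells. DPPA5 (chr6:74062785-74064018), a gene of pluripotent cells, had 131 reads per kb (112 to 153) under a peak of 2550 bp. PGK2, the testis phosphoglycerate kinase at chr6:49753366-49755053, had 96.6 reads per kb and a peak of 750 bp. TNP2, a sperm transition protein at chr16:11361605-11363390, had 92.9 reads per kb and a peak of 600 bp that began 290 bp after its start.

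In the longer germline genes the peak was short against the gene. TDRD5 spans 99.7 kb, its peak of 2550 bp lay over the start, and 7.58% of the gene was in peaks. SPO11 spans 14.2 kb, with a peak of 1500 bp over the start and 8.68% of the gene in peaks. BOLL had a peak of 2850 bp over its start and 11.1% of the gene in peaks. Their scores, 63.7, 62.4 and 50.05 reads per kb, lay below the median of rows with a peak at the start (76.4) and above that of all rows (37.1).

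Neuronal genes had a peak at 9 of 22 starts (40.9%, 20.7 to 63.6) and at 3 of 22 ends (13.6%), against 12.7% and 12.2% of all rows. Cover was 29.4% within 250 bp of the start, against 8.48% from 10 to 1 kb upstream and 16.2% from 1 to 10 kb downstream. GAD2, an enzyme that makes GABA, at chr10:26505236-26593487, had 79.2 reads per kb and a peak of 8850 bp. SYN2, a synaptic vesicle protein at chr3:12045862-12232907, had 68.03 reads per kb, and SNAP25, a fusion protein of the synapse at chr20:10199478-10288066, had 56.8. Potassium channel genes had a peak at 24 of 80 starts (30%, 20.3 to 41.3), led by KCNA3 (174 reads per kb), KCNG2 (163) and KCNA1 (156). Receptors for glutamate, GABA, glycine and acetylcholine had one at 11 of 53 starts (20.8%, 10.8 to 34.1), led by GRM6 with 153 reads per kb. That interval includes the 12.7% of all rows. Solute carriers had one at 53 of 313 starts (16.9%, 12.9 to 21.6).

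Keratins, the intermediate filament proteins of epithelia and hair, had a peak at 26 of 55 starts (47.3%, 33.7 to 61.2) and at 22 of 55 ends (40.0%), against 12.7% and 12.2% of all rows. The type I cluster on chromosome 17 had 14 of 28 starts in this class and the type II cluster on chromosome 12 had 12 of 27, a split made after the values were seen. Cover was 37.9% within 250 bp of the start, 22.5% from 10 to 1 kb upstream and 25.1% from 1 to 10 kb downstream. KRT10 (chr17:38974369-38978847) had 191 reads per kb (179 to 204) with its start inside a peak of 4050 bp. KRT38 (chr17:39593529-39597173), a hair keratin, had 142 reads per kb, and KRT19 (chr17:39679869-39684560), of simple epithelia, had 138. Each had its start inside a peak of 4950 bp, and peaks covered 100% of KRT38 and 37.5% of KRT19. The partner keratins KRT8 and KRT18, also of simple epithelia and named here after their values were seen, had no peak at the start. Keratin-associated proteins, which crosslink hair keratins, had a peak at 13 of 36 starts (36.1%, 20.8 to 53.8), led by KRTAP10-5 with 206 reads per kb.

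Zinc finger genes had a different layout. A peak lay at 68 of 259 starts (26.3%, 21.0 to 32.1) and at 109 of 259 ends (42.1%), against 12.7% and 12.2% of all rows. Cover had its lowest value within 5 kb just after the start, 14.2%, and was 21.6% from 10 to 1 kb upstream and 26.7% from 1 to 10 kb downstream. The start was inside a peak in 37 of the 68 rows. Among these rows, peaks covered a mean of 49.1% of the gene, against 21.3% in the other zinc finger rows. ZNF595 (chr4:53179-88099) had the widest peak at any start, 32850 bp at chr4:37951-70800, 74.7% of the gene in peaks and 252 reads per kb (247 to 258). ZNF273 (chr7:64330550-64391344) had a peak of 24300 bp over its start and 150 reads per kb. ZNF75A (chr16:3355486-3368574) had 264 reads per kb, the highest of the list, and its peak of 19050 bp began 615 bp after the start. ZNF32 (chr10:44139307-44144304) had 253 reads per kb, and its peak of 7200 bp began 654 bp after the start.

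Around ZNF32, the antisense row ZNF32-AS1 (chr10:44139320-44140495) had the highest score of rows with a peak at the start, 515 reads per kb (475 to 558). It lies inside the ZNF32 row and shares its reads. ZNF454 (chr5:178368192-178393434) and AC104117.1 shared a peak of 17250 bp, with 135 and 302 reads per kb. Zinc finger genes with a BTB domain, which lack the KRAB repressor domain, had a peak at 4 of 33 starts (12.1%, 3.40 to 28.2), close to the 12.7% of all rows, and in none of them was the start inside a peak.

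Olfactory receptors, single-exon coding genes of the nose, had a peak at 40 of 216 starts (18.5%, 13.6 to 24.4), against 12.7% of all rows. The direction turned with the choice of peaks: the start lay inside a peak in 15 rows (6.94%), against 7.51% of all rows, and with peaks of 1500 bp or more the share was 3.24%, against 7.51%. The median peak was 1050 bp, about the length of the receptor rows (median 1.07 kb), and it lay over the gene: cover was 12.3% in the 1 kb after the start and 5.07% in the 1 kb before it. Receptor rows with a peak had a mean of 61.5% of the gene in peaks, against 0.153% in the other receptor rows. The window takes in nearly the whole of such short rows, so the choice of rows largely sets this difference. OR2C1 (240 reads per kb), OR2AT4 (210) and OR4D1 (207) were the highest. Cytochrome P450 genes had a peak at 12 of 39 starts (30.8%, 17.02 to 47.6), against 12.7% of all rows, with CYP27A1, a sterol hydroxylase, at 101 reads per kb and CYP3A4, a liver drug-metabolising enzyme, at 89.2. Collagens had one at 11 of 38 starts (28.9%), and a single peak of 6300 bp on chromosome 13 reached the starts of both COL4A1 and COL4A2, which face away from each other. Imprinted genes, expressed from 1 parental allele, had one at 10 of 34 starts (29.4%, 15.1 to 47.5), with ZNF597 and RTL1 at 163 reads per kb each and GNAS-AS1 at 111. Liver genes had one at 5 of 25 starts (20%, 6.83 to 40.7) and muscle genes at 5 of 22 (22.7%, 7.82 to 45.4). Both of these intervals include the 12.7% of all rows. PCK1 led the liver genes at 131 reads per kb and ACTA1 the muscle genes at 155.

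Several further lists lay near the 12.7% of all rows. Epidermal differentiation genes, which build the outer skin layer, had a peak at 7 of 50 starts (14%, 5.82 to 26.7). Trichohyalin, TCHH at chr1:152078793-152086556, had 209 reads per kb with its start inside a peak of 5400 bp, LCE3D, a late cornified envelope protein, had 149 and TCHHL1 had 119. The WNT, FGF, BMP and GDF ligands, secreted signals of the embryo, had a peak at 6 of 50 starts (12%, 4.53 to 24.3), with BMP7 at 89.4, WNT2 at 78.03 and FGF2 at 63.8 reads per kb. Serpins, mostly protease inhibitors, had one at 4 of 33 starts (12.1%), led by SERPINA3 with 97.0 reads per kb. Taste and vomeronasal receptors had one at 3 of 27 (11.1%), those of TAS2R7 (152 reads per kb), TAAR8 (95.2) and TAAR1 (94.1). Immunoglobulin and T cell receptor segments had one at 3 of 21 (14.3%). These were IGHEP2, a pseudogene on chromosome 9 (178 reads per kb), and the constant regions IGHA1 (69.2) and IGHE (49.8) on chromosome 14. The list of TBC1, USP, NBPF and defensin copies had a peak at 9 of 86 starts (10.5%, 4.90 to 18.9). Its highest scores were those of the defensins DEFB128 (173 reads per kb), DEFB127 (138) and DEFB125 (118). Each of these lists but the last lay above the share of all rows under some alternatives and below it under others.

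Lists of genes used by nearly every cell had few peaks at the start. Ribosomal protein genes had 2 of 59 starts with a peak (3.39%, 0.413 to 11.7), mitochondrial ribosomal proteins 3 of 66 (4.55%) and respiratory chain and ATP synthase genes 2 of 60 (3.33%), against 12.7% of all rows. Proteasome genes had 0 of 44, core and linker histones 0 of 23 and housekeeping genes 0 of 15, counts whose exact binomial intervals reach up to 8.04%, 14.8% and 21.8%. The histone count holds only for rows of 1 kb or more: without a minimum length, the share of histone rows with a peak was 27.8%, against 13.0% of all rows. The ribosomal exceptions were RPL39L, a testis-enriched copy of RPL39, with 76.6 reads per kb, and RPL31 with 27.2. The respiratory exceptions were COX8C, a testis form of a cytochrome oxidase subunit, with 149 reads per kb, and NDUFV3 with 21.1. MRPS5, MRPS22 and MRPS33 had 80.6, 70.9 and 28.3 reads per kb, and a peak of 15900 bp lay over the start of the MRPS5 row, with 34.0% of the row in peaks. The MRPS5 and MRPS22 rows span 62.2 and 351 kb, against a median of 11.9 kb in their list. Whether these 2 rows start where RefSeq starts the gene was not examined, so a peak at the known promoter is not shown.

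Myeloid genes, the markers of the lineage that KBM7 comes from, had a peak at 2 of 25 starts (8%, 0.984 to 26.0), against 12.7% of all rows. These were CD14, the monocyte receptor for lipopolysaccharide at chr5:140011313-140013286, with 191 reads per kb (172 to 211) and the whole gene in a peak of 3150 bp, and CTSG, the granule protease cathepsin G at chr14:25042728-25045466, with 106 reads per kb and a peak that began 566 bp after the start. The other 23 myeloid rows had a median of 27.1 reads per kb. Lymphoid genes had a peak at 3 of 27 starts (11.1%): CR2 at 84.6 reads per kb, CD28 at 76.6 and MS4A1 at 61.4. Genes of the H3K9 methylation machinery had a peak at 2 of 20 starts (10%, 1.23 to 31.7), near the 12.7% of all rows. These were KDM3A and FAM208A, both with the peak upstream of the start, at 28.3 and 22.1 reads per kb.

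Rows without a protein-coding match made up much of the class. Protein-coding symbols had a peak at 1687 of 14998 starts (11.2%, 10.7 to 11.8) and long noncoding RNAs at 140 of 823 (17.01%, 14.5 to 19.8). Rows named after genomic clones, most of which matched no RefSeq gene, had one at 1209 of 8192 starts (14.8%, 14.0 to 15.5), and rows named as long intergenic RNAs at 42 of 177 (23.7%, 17.7 to 30.7). LINC00391 (chr13:95351948-95355116) was the highest of these with 240 reads per kb under a peak of 7200 bp. Of rows that start back to back with another row, a peak lay at 211 of 2490 starts (8.47%, 7.41 to 9.64), against 2877 of 21891 other rows (13.1%, 12.7 to 13.6). By chromosome, the share ran from 7.42% on chromosome 17 and 7.43% on chromosome 16 to 18.0% on chromosome 18.

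Peaks at start sites were wider than the other peaks of these chromosomes. Their median width was 1500 bp (25th to 75th percentile 750 to 2850, longest 32850), against 900 bp (600 to 1500, longest 60750) for the 104266 other peaks. The 25th to 75th percentile ranges overlap. Peaks of 5 kb or more were 9.06% of those at starts (8.09 to 10.1), against 1.996% of the others, and peaks of 300 bp, the narrowest called, were 6.36% against 13.3%. Peaks at starts held 5.21% of the peak sequence of these chromosomes, 7352 of 141085 kb. A wide peak reaches a window more easily than a narrow one: in windows moved by 5 to 50 kb from the start the peaks met had a median of 1350 bp, and 8.23% to 10.1% of them were 5 kb or more. Of the 3224 peaks, 2943 reached 1 row, 257 reached 2 rows and 24 reached 3. In 2682 rows the window held 1 peak, in 373 it held 2, and the largest number was 4.

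The 10 widest peaks at starts reached zinc finger loci, developmental genes and rows with clone or long intergenic names. ZNF595, ZNF273, ZNF75A with its neighbour TIGD7, and ZNF454 were zinc finger loci, and HOXD4 and TBX15 were developmental genes. The remaining peaks among the 10 widest reached clone-named or long intergenic rows: AC093802.1 (25050 bp), RP11-1191J2.2 (21900 bp), RP5-1097F14.3 (20700 bp) and 3 rows on chromosome 13 around LINC00453 and LINC00454 (16950 bp). Another peak of 16950 bp, on chromosome 2, reached the starts of C2orf16, ZNF512 and RP11-158I13.2. C2orf16 lay almost wholly inside it, with 206 reads per kb, whereas the peak ended 397 bp before the start of ZNF512, which had 38.8 reads per kb.

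**Figure D3:**
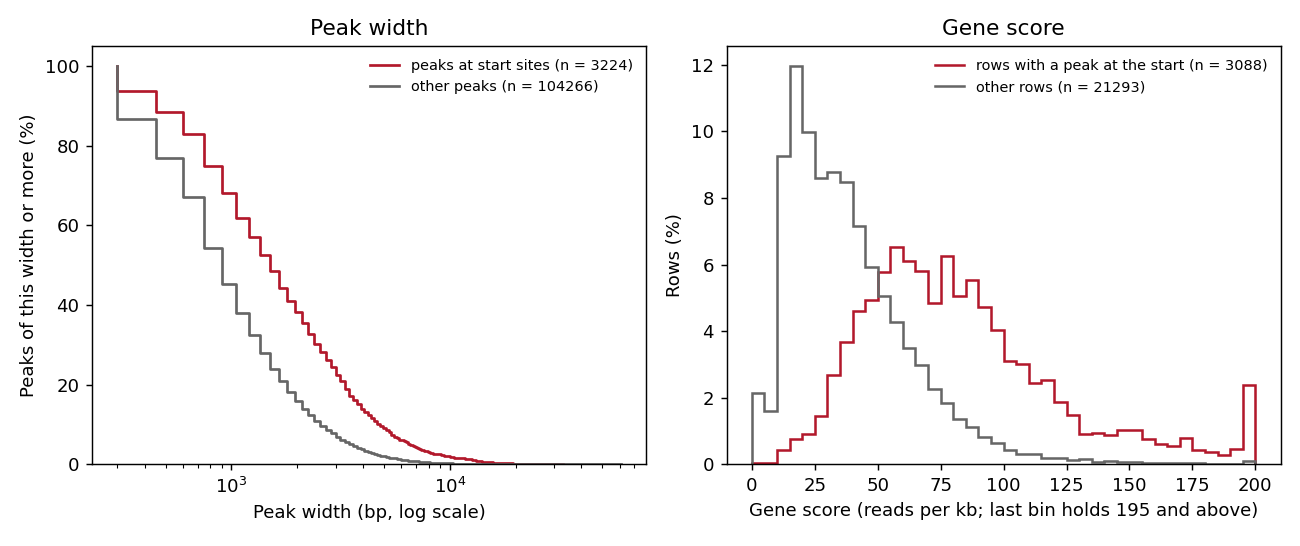
Left: percent of peaks of a given width or more (y axis) by width in bp (x axis, log scale), for 3224 peaks at start sites (red) and 104266 other peaks (grey). Right: percent of rows (y axis) by gene score in reads per kb (x axis, bins of 5, the last bin open), for 3088 rows with a peak at the start (red) and 21293 other rows (grey); medians are 76.4 and 33.7.

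Rows with a peak at the start had high gene scores. The median was 76.4 reads per kb (74.8 to 77.7) in the 3088 rows with a peak at the start, against 33.7 (33.4 to 34.1) in the 21293 other rows. The ranges from the 25th to the 75th percentile did not overlap, at 54.9 to 101 against 20.01 to 51.01, while the ranges did. Among the other rows, the 7425 with a peak inside the gene had a median of 48.7, and the 13868 with none had 24.6. Of the rows with a peak at the start, 92.4% lay above the median of all rows (37.1). Of the rows at or above the 90th percentile of the score (83.1), 53.1% had a peak at the start. Peaks and scores count the same reads, so this difference is a description of 1 library.

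The score followed how much of the window the peaks filled. With up to 25% of the 2 kb window in peaks the median was 67.0 reads per kb, then 68.7, 76.9 and 81.1 in the classes between, and 94.2 (90.1 to 101) for the 527 rows with the whole window in peaks. The intervals of the 2 lowest classes overlap. Within each of the 38 lists that had any row with a peak at the start, those rows had the higher median score. Peaks and scores count the same reads here too. The gap was widest on the ratio scale in the list of TBC1, USP, NBPF and defensin copies, at 97.3 reads per kb (10.2 to 138) against 5.47. The first value rests on 9 rows, of which the highest were defensins, so the gap may set unlike families side by side. These families hold near-identical copies, and the sources used here do not say how reads that map to several places were treated.

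**Figure D4:**
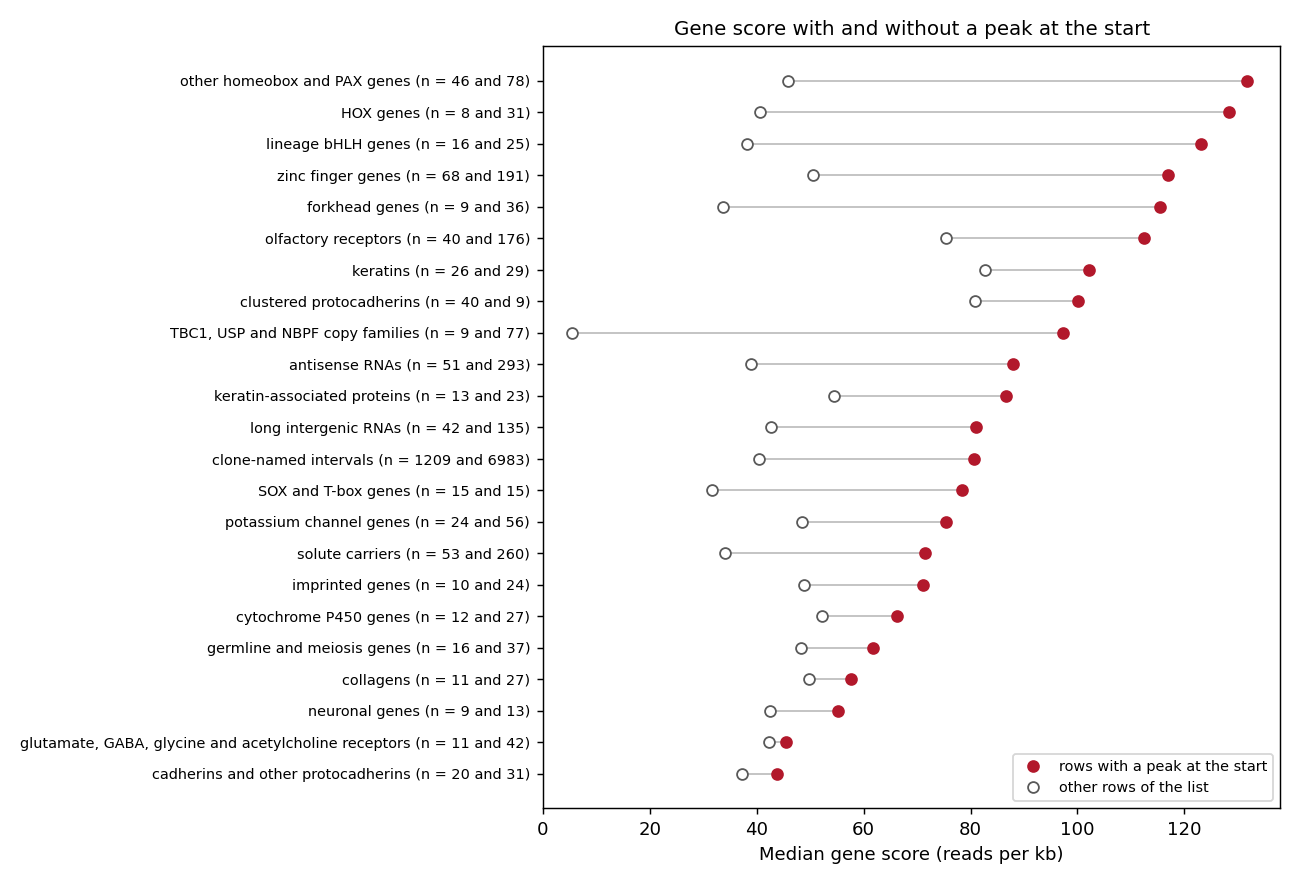
Median gene score in reads per kb (x axis) of rows with a peak at the start (red) and of the other rows of the same list (open circles), for the 23 lists with 8 or more rows with a peak; n gives both numbers of rows in that order. Other homeobox and PAX genes have the highest median with a peak (132) and cadherins the lowest (43.9). The score is a mean over the whole row, so a narrow peak weighs less in a long row. The median row length is 7.63 kb in the homeobox and PAX list and 75.6 kb in the cadherin list.

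The lowest scores among rows with a peak at the start belonged to rows in which the peak lay before the gene. USP17, matched in RefSeq to the transcribed pseudogene USP17L9P, had 0 reads, and its peak of 600 bp ended 491 bp before the start. It is a member of the copy families above, and how reads that map to several places were treated is not stated. The 0 reads may therefore not mean a lack of signal. DHX40, an RNA helicase, had 9.60 reads per kb (8.69 to 10.6), POTEH 10.2, ZRANB2, a splicing factor, 10.996 and EXOSC2, a subunit of the RNA exosome, 12.4, and none of these 5 rows had any of its sequence in peaks. The distances from peak to start were 136 bp in DHX40, 114 bp in POTEH, 321 bp in ZRANB2 and 708 bp in EXOSC2.

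In rows with a peak at the start, peak sequence often lay outside the start window too. A mean of 28.0% of the gene, the start peak included, lay in peaks in these rows, against 3.33% in the other rows. In rows of 5 kb or more, a peak deeper than 1 kb into the gene was present in 1960 of 2263 rows with a peak at the start (86.6%, 85.1 to 88.0), against 7226 of 16834 others (42.9%, 42.2 to 43.7). A peak lay 1 to 10 kb upstream in 75.1% of rows with a peak at the start, against 21.0% of the others, and a peak at the end in 36.7%, against 8.66%. Wide peaks contribute to each of these counts, since 1 peak can cover the start and the flank. Separate second peaks were not counted, so these values do not tell how often a start peak stood alone. In rows shorter than 2 kb the windows at the start and at the end overlap, so even a narrow peak can count at both. Of the 40 olfactory receptor rows with a peak at the start, 31 also had one at the end.

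Of 1461 rows of 20 kb or more with a peak at the start, 127 (8.69%, 7.30 to 10.3) had no peak deeper in the gene. Their median score was 34.9 reads per kb (31.7 to 38.5) and their widest peak had a median of 1050 bp. The 1334 rows with peaks at the start and deeper had 63.8, and the 4404 rows of this length with neither had 22.5. The widest such peaks lay at SUMO3 (5400 bp), AP000487.5 (4650 bp), LPAR5 (4350 bp), ALKBH3 (4200 bp) and IMPACT (4200 bp). SUMO3 encodes a ubiquitin-like modifier, LPAR5 a lysophosphatidic acid receptor and ALKBH3 a DNA repair demethylase. In SUMO3 and LPAR5 the peak ended 7 and 25 bp before the start, and in IMPACT it ran 70 bp past it. Their scores were 21.4, 43.7, 18.7, 22.9 and 32.1 reads per kb in the order of width.

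Promoter base composition was set beside the peaks for protein-coding rows, of which 82.3% matched a RefSeq promoter (81.6% of those with a peak at the start). Over all rows 53.2% matched, too few for a check, because most clone-named rows had no match. A promoter was called CpG-rich when its 300 bases, from 250 before to 50 after the RefSeq start, had a CpG observed over expected of 0.6 or more and a GC share of 50% or more. Of the rows with a peak at the start, 54.5% of 1376 were CpG-rich (51.8 to 57.2), against 68.1% of 10965 others (67.2 to 69.0). Put the other way, 15.2% of CpG-poor promoters (14.1 to 16.3) and 9.13% of CpG-rich ones (8.52 to 9.77) had a peak at the start. The share was highest, 18.8%, for an observed over expected of 0.4 to 0.5, and lowest, 7.34%, at 1.0 or more.

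**Figure D5:**
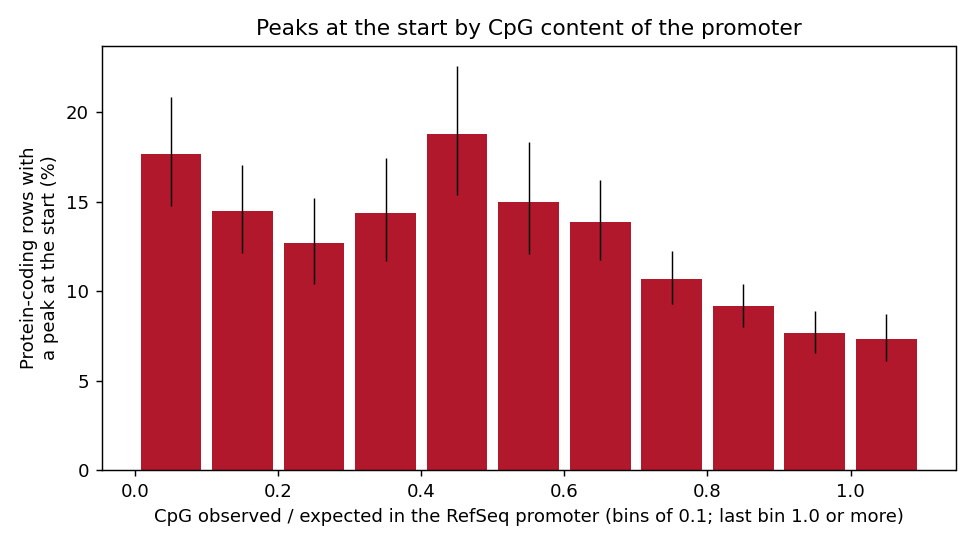
Percent of protein-coding rows with a peak at the start (y axis, bars from 0, lines are 95% exact binomial intervals) by CpG observed over expected in the RefSeq promoter (x axis, bins of 0.1, the last open). The share lies between 12.7% and 18.8% below 0.6 and is 7.34% in the last bin.

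The families differed here too. Of the germline genes with a peak at the start that matched a promoter, 11 of 15 were CpG-rich (73.3%), as SPO11 and BOLL above, and so were 44 of 61 zinc finger genes (72.1%). Among the rows of these lists without a peak at the start the shares were 83.9% (26 of 31) for germline and 81.7% (134 of 164) for zinc finger genes. Of the clustered protocadherins with a peak at the start, 3 of 36 were CpG-rich (8.33%), with a median GC share of 39.7%. Among the matched rows of this list without a peak at the start, 1 of 6 was CpG-rich (16.7%), with a median GC share of 37.7%. A low GC share was thus found in both sets of rows. In the rows with a peak the median CpG observed over expected, 0.608, lay just above its limit, while the median GC share lay below its own. The TATA box (TATAAA, or TTTATA on the other strand) stood in 13.5% of promoters with a peak at the start, against 8.74% of the others and 9.27% of all 12341 protein-coding promoters. This share varied with CpG class. Over matched rows of any type it was 21.8% with a peak and 18.7% without in CpG-poor promoters, and 5.88% and 3.96% in CpG-rich ones. The CCAAT box (CCAAT, or ATTGG on the other strand) stood in 35.0%, against 35.9% of the others and 35.8% of all. The E-box CACGTG, which reads the same on both strands, stood in 7.27%, against 9.30% of the others and 9.08% of all. A match describes the letters of this window, not a bound site.

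Pairs and rows just inside and just outside the limits of the choice had these values. In 257 pairs of a row and a peak 851 to 1000 bp apart the median peak width was 1050 bp and the median score 76.1 reads per kb. In 275 pairs 1001 to 1150 bp apart, outside the window, these were 1050 bp and 78.2. Rows of 1000 to 1099 bp had a peak at the start in 17.7% of cases (13.9 to 22.1), and rows of 900 to 999 bp, too short to be taken, in 18.9% (14.97 to 23.2).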

How the data were processed

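One H3K9me3 library of KBM7 cells was analysed; IgG was not analysed here. Per the submitters' processing notes, the tools were Bowtie2 and MACS and the build hg19; versions, read filters and any use of IgG by the caller are not given there. The authors deposited raw read counts per gene interval, the interval length in kb and a score, which equals reads per kb (largest difference 3.03e-06) and is a signal not scaled to depth, IgG or copy number. The deposited peak list gives positions on a 150 bp grid, with no height or significance.

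From these, peaks were joined to start sites, tested on simulated intervals with known answers, with scipy 1.17.1, pandas 2.3.3 and numpy 2.4.6 under Python 3.11.15, and drawn with matplotlib 3.10.9. Shares have exact Clopper-Pearson, medians binomial order-statistic and scores exact Poisson intervals at 95%, for counting error only. Reads are not molecules. RefSeq symbols (GRCh38.p14) matched 65.7% of rows and gave types and promoters. Members, lists and tests were chosen with earlier results of these data known. The named genes are those under the 10 widest peaks, the 5 highest and 5 lowest scores, the 3 peaks reaching most starts, the 3 highest rows of each list (all rows where fewer than 4 had a peak) and the 5 widest lone start peaks of genes of 20 kb or more. Other genes are said to be named after their values were seen, except where a short set is listed in full. Not every gene that this rule names is described, and 1 is not reported here.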

Additional observations from a re-analysis of the deposited data

How the results depend on the processing

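In each of the 11 alternatives tried, rows with a peak at the start kept the higher median score and peaks at starts the larger median width. Neither is an independent check, since peaks and scores count the same reads and a wide peak reaches any window more easily. The number of lists at 2 or more times the share of all rows ran from 13 to 17. With 250 bp either side of the start, 2068 peaks (1.92%) and 8.95% of rows remained, with medians of 1950 bp and 78.5 reads per kb; with 2 kb, 4.48% of peaks and 16.9% of rows, 1350 bp and 72.8. With 500 bp or more of overlap these were 2.06%, 9.50%, 1950 bp and 79.0. With the start inside the peak they were 1698 peaks, 1.58%, 7.51%, 2250 bp and 80.6. With peaks of 1500 bp or more they were 1693 peaks, 5.51%, 7.51%, 2700 bp and 85.3. Without a minimum length, 4.16% of peaks qualified and the median score was 93.4; with rows of 5 kb or more, 2.24%, 11.9% of rows and 67.4. Protein-coding symbols had 1859 peaks, 1.73%, 11.2%, 1800 bp and 70.9. With chromosomes 8, 15 and 19 added, the values were 3.23%, 13.5% and 82.1.

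Of 444 pairs of a list and an alternative, 395 stayed within the counting interval of the share, 46 moved beyond it and 3 went to the other side of the share of all rows from at least 1.5 times above or below it: histones to 27.8% without a minimum length, and HOX genes to 10.5% and forkhead genes to 10% with rows of 5 kb or more. From main shares nearer to that of all rows, 20 more pairs in 10 lists changed sides, olfactory receptors among them. The cause was not tested. The CpG-rich share of matched rows of any type with a peak at the start was 52.7%, or 51.9% where row and RefSeq lengths lay within 5%, an alternative chosen after seeing the data. No paired analysis was possible because the study has 1 H3K9me3 library. With no IgG values, background at any 1 start was not measured.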
